A study of Homo sapiens with 17 samples.

Results

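The genes followed here belong to the FOXO and serum withdrawal response, 10 listed by name: FOXO1, FOXO3, IRS2, PIK3IP1, KLF9, TXNIP, CCNG2, BCL6, PDK4 and GAS1. Each was taken from the deposited expression table by its symbol, and 9 of the 10 had a row among the 9699 genes of that table. PDK4, a kinase that switches off pyruvate dehydrogenase, had no row and was not analysed here.

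The cells were BJ fibroblasts, human skin fibroblasts immortalized with hTERT, and every group compared here is derived from them. RNA-Seq and Ribo-Seq, which sequences the mRNA fragments protected by ribosomes, were run on 5 conditions, and the deposited table has 12 columns of values, 1 for each assay in each of 6 groups, since proliferating cells were profiled in both of 2 sequencing runs. Sequencing run 1 held proliferating cells, grown in 10% heat-inactivated fetal calf serum, together with cells made quiescent by serum depletion and pre-senescent cells. Pre-senescent cells expressed hTERT and a tamoxifen-inducible RASG12V and had spent 5 days in 1e-07 M 4-OHT-Tamoxifen. Run 2 held another proliferating culture, cells of the inducible RASG12V kind after 14 days in the same dose (senescent), and transformed cells, which carried hTERT, a p16INK4A knockdown, a further knockdown not reported here, SV40 small T and a retroviral RASG12V. The length of serum depletion and the serum that remained are not given in the sources used here. In run 1 the proliferating and quiescent columns of both assays and the pre-senescent RNA-Seq column each combine 2 libraries, and the other 7 columns hold 1 library each, so no column has a replicate beside it and no test between conditions was possible. Each condition was therefore compared with the proliferating column of its own run, and a difference was counted when it reached 2-fold.

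FOXO transcription factors are held in the cytoplasm when growth factors activate PI3K and AKT, because AKT phosphorylates them. When serum is withdrawn, they move to the nucleus and switch on genes for cell cycle arrest, metabolism and feedback onto the insulin receptor pathway. This control acts on the FOXO proteins and does not need a change in FOXO mRNA, which is what the present assays read. In cultured fibroblasts the response goes with reversible arrest, and the growth arrest specific genes, of which GAS1 is one, were first defined by their rise in serum-starved cells.

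The forkhead family binds DNA at sites containing TGTTTAC, so RefSeq promoter windows (GRCh38.p14, 250 bases before to 50 after an annotated start) of all 10 genes were read for those letters on both strands. They stood in 2 of the 16 windows, one of TXNIP and one of PIK3IP1, against 3.42% of all 35116 windows. The TXNIP stretch is shown because it also holds a pair of CACGAG boxes 5 bases apart, a spacing known from carbohydrate response elements and present, on either strand, in 2 of the 35116 windows. In TXNIP (chr1:145996626-145996728, minus strand) the forkhead match began 124 bases before the start and the CACGAG pair 88 bases before it. In PIK3IP1 (chr22:31292454-31292483, minus strand) the match began 16 bases after one of its annotated starts. The CCNG2 window held a CACGTG box 30 bases before the start, as did 7.26% of all windows somewhere. Capitals mark the matches, with the forkhead letters read on the opposite strand in TXNIP.
TXNIP: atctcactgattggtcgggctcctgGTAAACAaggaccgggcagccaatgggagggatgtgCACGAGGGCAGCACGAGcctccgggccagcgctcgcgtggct
PIK3IP1: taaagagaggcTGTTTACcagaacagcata
A match describes the letters of the window and does not show that a factor bound there. The other windows did not contain TGTTTAC on either strand.

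Levels are in FPKM, fragments scaled to transcript length and library size, and the authors set every value under 1 to 1. A level at this floor is an upper limit, so a fold against it is a lower bound. Between 2.56% and 5.26% of genes were at the floor in the RNA-Seq columns and between 2.74% and 5.73% in the Ribo-Seq columns. The labels were checked first. CDKN2A, which encodes p16INK4A and a second protein from the same locus, was not lower in transformed RNA (12.64 against 6.75 FPKM) and was at 5.51 against 8.92 in Ribo-Seq. HRAS stood between 1254 and 2415 FPKM in the 5 non-transformed RNA-Seq columns, the proliferating controls included, and at 311.5 in transformed cells. The table cannot tell a transgene from the cell's own HRAS. The 2 Ribo-Seq libraries titled as senescent and as proliferating run 2 carry each other's condition in a second label field. The titles, which match the column names, were followed. By title, MKI67 was at 1 in senescent cells and at 43.97 (RNA-Seq) and 43.02 (Ribo-Seq) in proliferating cells of run 2, the same order in both assays. All 10 fibroblast markers checked were in the table, their sum running from 5249 to 21884 FPKM. None of the markers of keratinocytes, melanocytes, endothelium, fat or muscle had a row, while CD68 and CD14 of the leukocyte list summed to between 39.3 and 133.2 FPKM, lowest in senescent and highest in pre-senescent RNA. The part of such markers in the differences reported here was not tested. In bulk libraries such as these, fewer cells expressing a gene and less of its RNA per cell cannot be told apart.

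PIK3IP1, KLF9, CCNG2 and GAS1 were past 2-fold higher in quiescent than in run 1 proliferating cells in both assays, beside 4.11% of all genes in RNA and 9.31% in Ribo-Seq, and none of the members compared was past 2-fold lower. The control RNA of PIK3IP1 and KLF9 was at the floor. Neither FOXO mRNA was past 2-fold: FOXO3 RNA was at almost the same level in both columns, and FOXO1 RNA was at the floor in both. In senescent RNA, KLF9 and GAS1 were past 2-fold lower, beside 13.2% of all genes, and in transformed RNA IRS2, PIK3IP1 and BCL6, beside 5.39%. The proliferating cultures of the 2 runs also differed by more than 2-fold in the RNA of PIK3IP1, KLF9, CCNG2 and GAS1.

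FOXO1, a forkhead factor that mediates insulin-dependent transcription in many tissues, was scarcely detected. Its RNA was listed at 1 in 5 of the 6 groups and at 1.07 FPKM in proliferating cells of run 2. Its Ribo-Seq level was at the floor in proliferating cells of run 1 and in senescent cells, 1.65 in quiescent, 1.19 in pre-senescent, 3.33 in run 2 proliferating and 1.91 in transformed cells. The senescent Ribo-Seq level was thus at least 3.33-fold below its control, and the transformed level was 1.74-fold below it.

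FOXO3, the FOXO factor often tied to stress resistance and quiescence, was well above the floor in every column. It has a near-identical pseudogene copy. Reads were aligned by the authors to protein-coding transcripts and kept where unique, so reads of the copy could be counted as FOXO3 if the copy was not in that set, which was not checked. Its RNA stood at 12.04 FPKM in proliferating cells of run 1, 12.26 in quiescent, 13.10 in pre-senescent, 11.97 in run 2 proliferating, 15.01 in senescent and 7.18 in transformed cells. Ribo-Seq gave 12.58, 12.46, 10.51, 10.58, 14.92 and 6.67 FPKM in the same order. The proliferating, quiescent and pre-senescent columns lay close together in both assays, senescent cells were highest and transformed cells lowest. Quiescent RNA was 1.02-fold above its control, and both proliferating cultures differed by 1.01-fold. Within run 2, FOXO3 was 2.09-fold higher in senescent than in transformed RNA and 2.24-fold higher in Ribo-Seq. Against proliferating cells neither side of that difference reached 2-fold: senescent RNA was 1.25-fold higher and transformed RNA 1.67-fold lower.

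IRS2 is the adaptor that couples the insulin and IGF1 receptors to PI3K, and a known FOXO target through which fasting raises insulin sensitivity. Its RNA was at 5.74 FPKM in proliferating cells of run 1, 4.28 in quiescent, 3.79 in pre-senescent, 4.65 in run 2 proliferating, 3.63 in senescent and 1.30 in transformed cells. Its Ribo-Seq level was 6.88, 8.36, 5.83, 6.09 and 3.85 FPKM in the first 5 and at the floor in transformed cells. IRS2 RNA in quiescent cells was 1.34-fold lower than in proliferating cells while its Ribo-Seq level was 1.22-fold higher, so the assays pointed in different directions there. Transformed cells were lowest in both assays. Their RNA was 3.58-fold lower than in the run 2 control and their Ribo-Seq level at least 6.09-fold lower, and 1.87% of genes showed a larger RNA decrease.

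PIK3IP1 is a membrane protein that binds the p110 subunit of PI3K and inhibits it. Its RNA was at the floor in proliferating and pre-senescent cells of run 1 and at 8.95 FPKM in quiescent cells. In run 2 it was at 4.69 in proliferating, 4.49 in senescent and 2.20 in transformed cells. Quiescent cells were thus highest, at least 8.95-fold above their control. In Ribo-Seq, PIK3IP1 was at 7.51 FPKM in run 1 proliferating, 39.73 in quiescent, 4.02 in pre-senescent, 14.15 in run 2 proliferating, 14.05 in senescent and 4.54 in transformed cells. The quiescent level was 5.29-fold above its control, and 0.738% of genes increased more. Against the proliferating culture of run 2, the quiescent columns were 1.91-fold higher in RNA and 2.81-fold higher in Ribo-Seq. Senescent and run 2 proliferating cells were within 1.04-fold of each other in RNA and 1.01-fold in Ribo-Seq, whereas transformed cells were 2.13-fold lower in RNA and 3.12-fold lower in Ribo-Seq.

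KLF9 is a Krüppel-like transcription factor that slows proliferation and is induced by FOXO and by glucocorticoids. Its RNA was at the floor in proliferating and pre-senescent cells of run 1, 2.28 FPKM in quiescent, 4.03 in run 2 proliferating, 1.98 in senescent and 3.75 in transformed cells. Ribo-Seq gave 2.16 in run 1 proliferating, 8.78 in quiescent, the floor in pre-senescent, 4.95 in run 2 proliferating, 2.96 in senescent and 2.82 in transformed cells. Ribo-Seq placed quiescent cells highest, and RNA-Seq placed both run 2 proliferating and transformed cells above them. Quiescent KLF9 was at least 2.28-fold above its run 1 control in RNA and 4.06-fold above it in Ribo-Seq. With the run 2 control in its place, the RNA difference turned to 1.77-fold lower and the Ribo-Seq difference shrank to 1.77-fold higher. Senescent KLF9 RNA was 2.04-fold lower than its control, and pre-senescent Ribo-Seq at least 2.16-fold lower. With 1 FPKM added to every value both fell short of 2-fold. Against the run 1 control, senescent KLF9 RNA was higher.

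TXNIP, the thioredoxin-interacting protein that also limits glucose uptake, was the most abundant of the 9 genes in every column. Its RNA was at 36.64 FPKM in run 1 proliferating, 67.48 in quiescent, 44.94 in pre-senescent, 42.87 in run 2 proliferating, 82.48 in senescent and 71.65 in transformed cells. Ribo-Seq gave 68.97, 126.66, 58.92, 84.66, 189.32 and 133.92 FPKM in the same order. Quiescent, senescent and transformed cells were above both proliferating cultures in both assays. The quiescent column was 1.84-fold above its control in RNA and 1.84-fold above in Ribo-Seq, and its RNA was also 1.57-fold above the run 2 control. Senescent cells were 1.92-fold higher in RNA and 2.24-fold higher in Ribo-Seq, and transformed cells 1.67-fold and 1.58-fold higher. Pre-senescent cells were 1.23-fold above their control in RNA and 1.17-fold below it in Ribo-Seq.

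CCNG2, cyclin G2, is an unconventional cyclin that accumulates in arrested cells and is a FOXO target. Its RNA was at 1.66 FPKM in run 1 proliferating, 5.83 in quiescent, 1.67 in pre-senescent, 4.77 in run 2 proliferating, 5.43 in senescent and 5.67 in transformed cells. Ribo-Seq gave 2.10, 5.03, 5.18, 5.63, 6.05 and 4.47 FPKM in the same order. In RNA, the proliferating and pre-senescent cells of run 1 were low and the other 4 groups lay close together, and in Ribo-Seq run 1 proliferating cells alone were low. Quiescent CCNG2 was 3.51-fold above its control in RNA and 2.40-fold above it in Ribo-Seq. Pre-senescent CCNG2 was 1.01-fold above in RNA and 2.47-fold above in Ribo-Seq. With 1 FPKM added to every value, both the quiescent and the pre-senescent Ribo-Seq differences fell short of 2-fold. Against the run 2 culture, both Ribo-Seq levels were lower than the control. No condition of run 2 differed from its control by more than 1.26-fold in either assay.

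BCL6, a zinc finger repressor that is a FOXO target in lymphoid cells, had RNA at 10.83 FPKM in run 1 proliferating, 10.84 in quiescent, 8.11 in pre-senescent, 7.93 in run 2 proliferating, 5.00 in senescent and 3.77 in transformed cells. Ribo-Seq gave 7.03, 10.77, 7.50, 7.48, 5.78 and 3.12 FPKM in the same order. Transformed cells were lowest in both assays, 2.10-fold below their control in RNA and 2.40-fold in Ribo-Seq. Quiescent BCL6 matched its control in RNA and was 1.53-fold higher in Ribo-Seq. Senescent BCL6 was 1.59-fold lower in RNA and 1.29-fold lower in Ribo-Seq.

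GAS1, a membrane-anchored growth arrest protein that also binds Hedgehog ligands, covered a wide range of levels. Its RNA was at 3.29 FPKM in run 1 proliferating, 9.63 in quiescent, 1.68 in pre-senescent, 10.16 in run 2 proliferating, 1.10 in senescent and 6.94 in transformed cells. Ribo-Seq gave 6.62 in run 1 proliferating, 15.45 in quiescent, 1.29 in pre-senescent, 6.59 in run 2 proliferating, the floor in senescent and 2.46 in transformed cells. Both inducible RASG12V conditions were at or near the floor in both assays. Quiescent GAS1 was 2.93-fold above its control in RNA and 2.33-fold above it in Ribo-Seq. Against the run 2 culture, quiescent RNA was 1.06-fold lower and quiescent Ribo-Seq 2.34-fold higher, and the 2 proliferating cultures differed 3.09-fold in RNA and 1.00-fold in Ribo-Seq. Pre-senescent GAS1 was 1.96-fold lower in RNA and 5.13-fold lower in Ribo-Seq. Senescent GAS1 was 9.24-fold lower in RNA and at least 6.59-fold lower in Ribo-Seq. Transformed GAS1 was 1.46-fold lower in RNA and 2.68-fold lower in Ribo-Seq.

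Counted over the genes compared, 4 of 8 members were past 2-fold higher in quiescent RNA (PIK3IP1, KLF9, CCNG2, GAS1), beside 4.11% of all 9473 genes, and 0 were past 2-fold lower, beside 2.43%. FOXO1 was not counted because both values were at the floor, and PIK3IP1 and KLF9 entered this count only through their quiescent level, since their control was at the floor. Of the other 6, 2 were past 2-fold higher (CCNG2 and GAS1). In quiescent Ribo-Seq the same 4 of 9 were past 2-fold higher, beside 9.31% of all genes, and 0 lower, beside 8.2%. Among genes under 10 FPKM, the share past 2-fold higher was larger, 5.48% in RNA and 14.0% in Ribo-Seq. With 1 FPKM added to every value, 3 members were past 2-fold higher in each assay, KLF9 dropping out in RNA and CCNG2 in Ribo-Seq.  With the run 2 culture as control, 0 members were past 2-fold higher in quiescent RNA and 2, PIK3IP1 and GAS1, in Ribo-Seq.

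In pre-senescent cells PIK3IP1 and KLF9 RNA stayed at the floor, as in their control. Of the 6 members that could be compared, 0 were past 2-fold higher in RNA, beside 1.82% of all genes, and 0 lower, beside 2.05%. In Ribo-Seq, 1 of 9 was past 2-fold higher (CCNG2), beside 7.31%, and 2 were lower (KLF9 and GAS1), beside 10.6%. Among genes under 10 FPKM, 12.7% were higher and 14.4% lower. KLF9 was at the floor in pre-senescent Ribo-Seq, so it was compared only through its control. With 1 FPKM added to every value neither CCNG2 nor KLF9 was past 2-fold. With the run 2 control CCNG2 turned lower, short of 2-fold, and FOXO1 and PIK3IP1 were also past 2-fold lower. Quiescent and pre-senescent cells were sequenced in the same run, and the quiescent level was past 2-fold higher than the pre-senescent level for 4 of 8 members in RNA, beside 5.23% of all genes, and past 2-fold lower for 0, beside 2.22%. These were PIK3IP1 (at least 8.95-fold) and KLF9 (at least 2.28-fold), which were compared only through their quiescent level, and GAS1 (5.73-fold) and CCNG2 (3.49-fold). In Ribo-Seq 4 of 9 were past 2-fold higher, beside 10.9%, namely PIK3IP1 (9.88-fold), KLF9 (at least 8.78-fold), GAS1 (11.98-fold) and TXNIP (2.15-fold), and 0 were lower, beside 5.46%. KLF9 was again compared only through its quiescent level. CCNG2 was 1.03-fold lower in that Ribo-Seq contrast. The median member was at -0.20 in pre-senescent RNA and -0.24 in Ribo-Seq on the log2 scale. The Ribo-Seq changes of all genes had a median log2 of -0.12 in this comparison and again -0.12 in senescence, and the TE changes of pre-senescence -0.15, so values there sit on a lowered centre.

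In senescent cells, 0 of 9 members were past 2-fold higher in RNA, beside 7.19% of all genes, and 2 were lower (KLF9 and GAS1), beside 13.2%. Among genes under 10 FPKM, 17.6% were lower. With 1 FPKM added to every value KLF9 was no longer past 2-fold. With the run 1 control KLF9 RNA was higher, short of 2-fold, and PIK3IP1, TXNIP and CCNG2 were past 2-fold higher. In Ribo-Seq against the run 2 control, 1 was higher (TXNIP), beside 11.2%, and 2 were lower (FOXO1 and GAS1), beside 16.8%. Both senescent levels of the lower pair were at the floor, so both were compared only through their control. The median member was at -0.10 in RNA and -0.37 in Ribo-Seq, against -0.02 and -0.12 over all genes. Transformed cells had 0 of 9 past 2-fold higher in RNA, beside 4.97%, and 3 lower (IRS2, PIK3IP1 and BCL6), beside 5.39%. With 1 FPKM added to every value 1 was lower, and with the run 1 control 4 were higher and PIK3IP1 turned to a log2 change of 1.14. In transformed Ribo-Seq, 0 were higher, beside 5.34%, and 4 were lower (IRS2, PIK3IP1, BCL6 and GAS1), beside 7.44%. IRS2 was at the floor there, so it was compared only through its control. The median member in transformed cells was at -0.55 in RNA and -0.81 in Ribo-Seq on the log2 scale, against 0.09 and 0.01 over all genes. Senescent and transformed cells share a control column. Read directly against each other, senescent RNA was past 2-fold higher for IRS2 (2.79-fold), PIK3IP1 (2.04-fold) and FOXO3 (2.09-fold), beside 8.19% of all genes, and lower for GAS1 (6.31-fold), beside 15.3%. In Ribo-Seq IRS2 (at least 3.85-fold), PIK3IP1 (3.09-fold) and FOXO3 (2.24-fold) were higher, beside 12.8%, and GAS1 (at least 2.46-fold) was lower, beside 17.5%. IRS2 was compared there only through its senescent level and GAS1 only through its transformed level.

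Between the proliferating cultures of the 2 runs, 4 of 9 members were past 2-fold apart in RNA, each higher in run 2: PIK3IP1 (at least 4.69-fold), KLF9 (at least 4.03-fold), GAS1 (3.09-fold) and CCNG2 (2.87-fold). Over all genes, 7.97% were past 2-fold apart in either direction. PIK3IP1 and KLF9 were at the floor in run 1 and entered only through run 2, as did FOXO1. In Ribo-Seq, FOXO1 (at least 3.33-fold), KLF9 and CCNG2 were past 2-fold higher in run 2, beside 18.9% of genes in either direction. FOXO1 was at the floor in run 1 there too and was compared only through run 2. In TE, 1 of 6 members was past 2-fold apart, GAS1, 3.10-fold lower in run 2, beside 8.51% of genes. The run 1 proliferating columns enter this comparison as well as the quiescence one, so both carry whatever was particular to them. MKI67 RNA was at 73.87 FPKM in the run 1 culture, 43.97 in the run 2 culture and 32.76 in quiescent cells, and its part in these differences was not tested. The study's supplement lists the RNA-Seq libraries of run 1 as paired-end and those of run 2 as not. Sequencing run, this library difference and culture cannot be told apart here.

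Translation efficiency (TE), the log2 ratio of Ribo-Seq to RNA-Seq FPKM, differed by less than 2-fold from the control in most cases. It could be compared only where none of 4 values was at the floor. In quiescence, 0 of 6 members were past 2-fold higher, beside 3.09% of all genes, and 0 lower, beside 3.97%. In pre-senescence, CCNG2 was the 1 of 6 past 2-fold higher, beside 4.92%, and GAS1 the 1 past 2-fold lower, beside 8.32%. With 1 FPKM added to every value CCNG2 was no longer past 2-fold, and with the run 2 control GAS1 TE turned higher. In senescence 0 of 7 were past 2-fold higher, beside 2.68%, and 0 lower, beside 5.87%. In transformed cells 0 of 7 were past 2-fold higher, beside 0.899%, and 0 lower, beside 1.79%. The log2 changes of the 7 ran from -0.87 (GAS1) to 0.07 (FOXO3), with a median of -0.55 against -0.07 over all genes.

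Among single genes, PIK3IP1 had a TE well above 0 throughout, at 2.15 in quiescent, 1.59 in run 2 proliferating, 1.65 in senescent and 1.05 in transformed cells. In run 1 proliferating cells its TE was at least 2.91 because its RNA was at the floor. TXNIP stayed between 0.90 and 1.20 in all conditions but pre-senescence, where it was 0.39. FOXO3 kept within -0.32 and 0.06 and BCL6 within -0.62 and 0.21. CCNG2 TE was 0.34 in run 1 proliferating, -0.21 in quiescent and 1.63 in pre-senescent cells, the pre-senescent value coming from a Ribo-Seq level 2.47-fold above and an RNA level 1.01-fold above the control. IRS2 TE was 0.97 in quiescent cells, the highest of its 6 groups, against 0.26 in their control.

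Other genes were counted in fixed lists, and the shares of all genes past 2-fold in each comparison are those given above for the 9 genes. Of 30 further FOXO and PI3K-AKT pathway genes, 26 were in the table, and in quiescent RNA 2 were past 2-fold higher (TRIB1, 2.39-fold, and TRIB2, 2.04-fold, pseudokinases of which TRIB2 restrains FOXO3) and 1 was lower (SKP2, 2.11-fold, the ubiquitin ligase subunit that targets p27), beside 4.11% and 2.43% of all genes. Their median log2 change was -0.01, as over all genes. With 1 FPKM added to every value TRIB2 was no longer past 2-fold. With the run 2 control TRIB1, TRIB2 and SKP2 all fell short of 2-fold, and 1 other gene of the list was higher. In pre-senescent RNA TRIB1 was higher and IGF1R and SKP2 were lower. In senescent RNA TRIB3 was higher, and IGF1R (3.19-fold) and SKP2 (2.29-fold) were among those lower. In transformed RNA PIK3CD (3.78-fold) and TRIB1 were higher, and INPP4B (2.86-fold), a phosphatase that opposes PI3K, and IGF1R (2.51-fold) were lower.

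Of 26 other known FOXO targets, 19 were in the table. In quiescent RNA 2 were past 2-fold higher, the MYC antagonist MXI1 (2.31-fold) and the ubiquitin ligase subunit FBXO32 (at least 2.09-fold), and 0 were lower, with a median log2 change of 0.40. FBXO32 entered only through its quiescent level, its control being at the floor, and with 1 FPKM added to every value 0 of the list were past 2-fold higher. In pre-senescent RNA 0 of the 19 were past 2-fold in either direction, while 5 were lower in Ribo-Seq, beside 10.6% of all genes, and 5 of 18 were lower in TE, beside 8.32%. GABARAPL1, an autophagy protein, had the largest TE decrease, 13.8-fold, with Ribo-Seq at 1.14 FPKM against 18.07. It has close sequence relatives, and its counts are uncertain to that extent. In senescent RNA SOD2, the mitochondrial superoxide dismutase, was 9.22-fold higher, and CDKN1B (p27, 3.34-fold), KLF2 (7.25-fold) and KLF4 (3.68-fold) were lower. In all, 2 of the 19 were past 2-fold higher and 4 lower there. In transformed RNA SOD2 was 5.47-fold higher and CITED2 (4.75-fold), GABARAPL1 (2.73-fold) and SESN1 (2.36-fold) were among 4 that were lower.

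Of 10 further genes of the growth arrest kind, 8 were in the table. DCN, the matrix proteoglycan decorin, was 2.99-fold higher in quiescent RNA, from 27.61 to 82.58 FPKM, and was 7.50-fold lower in pre-senescent, 14.5-fold lower in senescent and 10.6-fold lower in transformed RNA. DCN is also one of the fibroblast markers above. Like GAS1, its RNA differed between the proliferating cultures, at 27.61 FPKM in run 1 and 164.26 in run 2. In quiescent RNA 1 of the 8 was past 2-fold higher and 0 were lower, in pre-senescent RNA 0 and 4, in senescent RNA 0 and 4, and in transformed RNA 2 and 3.

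Proliferation genes and serum-induced genes were read beside them. All 7 proliferation genes in the table were past 2-fold lower in quiescent RNA, with a median log2 change of -1.17, and all 7 in senescent RNA, with a median of -3.64. With the run 2 control, 2 rather than 7 were past 2-fold lower in quiescent RNA. In pre-senescent cells 0 of the 7 were past 2-fold in RNA, with a median of -0.68, but 6 were lower in Ribo-Seq, with a median of -1.06. In transformed RNA 0 of the 7 were past 2-fold in either direction. Of the 10 serum-induced genes in the table, 1 was past 2-fold lower in quiescent RNA, CYR61 (2.37-fold), 0 were higher, and their median was -0.41. In quiescent Ribo-Seq 2 of 9 were higher, 1 was lower and the median was 0.15. With the run 2 control, 4 were lower in quiescent RNA. In pre-senescent RNA EGR1 was 2.29-fold higher and CYR61 2.47-fold lower.

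The genes whose changes were most like those of a member were found for the 4 members above the floor in all 12 columns, by the root mean square difference over the 8 run-matched log2 changes of RNA-Seq and Ribo-Seq. GYS1, SLC4A8 and ATXN10 were nearest to FOXO3, at 0.10, 0.14 and 0.17. CYBA, FN3K and ALDH2 were nearest to TXNIP, at 0.21, 0.23 and 0.24. EBP, GSTZ1 and GRAMD4 were nearest to CCNG2, at 0.35, 0.37 and 0.38. SDC2, MSRB3 and FKBP11 were nearest to BCL6, all at 0.22. CCNG2 thus had the least close neighbours of the 4, and the reason was not tested. Against its low run 1 control, CCNG2 was past 2-fold higher in quiescence in both assays and in pre-senescence in Ribo-Seq. Both of these Ribo-Seq levels (5.03 and 5.18 FPKM) lay below the run 2 proliferating culture (5.63). With RNA changes alone, EBP and MSRB3 were the only ones of all these neighbours found again.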

How the data were processed

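RNA-Seq and Ribo-Seq libraries of BJ fibroblasts (17 samples, 9 RNA-Seq and 8 Ribo-Seq) were deposited as 1 table of FPKM values with 12 value columns. Per the study's methods and the labels, the authors aligned reads with Bowtie to protein-coding transcripts of Ensembl release 65, 1 isoform per gene, kept unique alignments, counted reads over the transcript (RNA-Seq) or the coding sequence (Ribo-Seq), removed genes with few reads and set FPKM under 1 to 1. The labels name hg19. How libraries were combined within a column is not given in the sources used here. The table gives no read numbers and no whole-read steps were seen in its low values, so counting error per gene could not be computed from it. Read totals per library are listed in the study's supplement and were not used here.

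Columns were assigned by sample title. Log2 ratios of FPKM, with nothing added, were taken within a run using Python 3.11.15, pandas 2.3.3 and numpy 2.4.6. Genes with both values at the floor (for TE, any of 4) were left out. The calculation was tested on simulated data made from genes well above the floor. That simulation did not cover values at or near the floor, where several members lay. With 1 column per group no p-value was computed. All 10 members are named, with the 3 nearest genes of the 4 members above the floor in all columns and, from fixed lists, at most 4 genes past 2-fold per list and comparison. Members and lists were chosen with earlier results of these data known. Alternatives were a pseudocount of 1, no filter, a minimum of 5 FPKM, median centring, 1.5-fold, the control of the other run and an exchange of 2 Ribo-Seq columns. Leaving out replicates could not be run. Some items are not reported here.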

Additional observations from a re-analysis of the deposited data

How the results depend on the processing

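No paired analysis was possible because the table has no column per replicate, and leaving out a replicate was not run for the same reason. Counts below are members past the fold, main value first. Shares of all genes were computed for the main setting only, so counts under another setting, here and above, have no background beside them. With the control of the other run, quiescence went from 4 to 0 higher in RNA, from 4 to 2 higher and 0 to 1 lower in Ribo-Seq, and from 0 to 2 higher in TE. Pre-senescence went from 0 to 4 lower in RNA, 1 to 0 higher and 2 to 4 lower in Ribo-Seq, and 1 to 0 lower in TE. Senescence went from 0 to 3 higher in RNA and, in Ribo-Seq, from 1 to 2 higher and 2 to 1 lower. Transformed cells went from 0 to 4 higher in RNA, 0 to 1 higher in Ribo-Seq and 0 to 1 lower in TE. Log2 values past 2-fold that changed sign under that control were KLF9 (-0.82) and GAS1 (-0.077) in quiescent RNA, CCNG2 in quiescent (-0.16) and pre-senescent (-0.12) Ribo-Seq, GAS1 in pre-senescent TE (0.24), KLF9 in senescent RNA (0.99) and PIK3IP1 in transformed RNA (1.14). Smaller values changed sign too, among them FOXO1 in quiescent Ribo-Seq (-1.01), CCNG2 in pre-senescent RNA (-1.51) and PIK3IP1 in senescent RNA (2.17). Proliferation genes lower in quiescence went from 7 to 2 in RNA and from 5 to 2 in Ribo-Seq. The cause was not tested. Requiring 5 FPKM in every value leaves few members, and the counts fell to 0 higher in quiescent RNA, 2 higher in quiescent Ribo-Seq, and 0 in pre-senescent Ribo-Seq and TE, senescent RNA (lower), senescent Ribo-Seq (lower) and transformed RNA and Ribo-Seq (lower). A pseudocount of 1 gave 3 higher in quiescent RNA and 3 in quiescent Ribo-Seq, 0 higher and 1 lower in pre-senescent Ribo-Seq, 0 higher in pre-senescent TE, 1 lower in senescent RNA and 1 lower in transformed RNA. Without a filter, TE had 2 lower in pre-senescence and 1 in senescence. Centring gave 1 lower in pre-senescent RNA and 1 lower in pre-senescent Ribo-Seq. At 1.5-fold, quiescence had 7 higher in Ribo-Seq and 2 in TE, pre-senescent RNA 2 lower, and senescence 1 higher in RNA and 4 lower in Ribo-Seq. Transformed cells had 1 higher in RNA, 1 higher and 7 lower in Ribo-Seq and 2 lower in TE. More genes pass this lower fold: in quiescent Ribo-Seq, 18.0% of all genes rose more than BCL6 (1.53-fold), the smallest of the 7. Exchanging the 2 Ribo-Seq columns with conflicting labels gave senescence 2 higher and 1 lower in Ribo-Seq and 3 higher and 1 lower in TE, and transformed cells 1 higher in Ribo-Seq and 1 lower in TE. Among values past 2-fold it turned the senescent Ribo-Seq values of FOXO1 (1.74), TXNIP (-1.16) and GAS1 (2.72), and it turned transformed GAS1 (1.30). With RNA changes alone, 2 of the 12 nearest genes were shared with the main list. Without read numbers in the table, the counting error of genes near the floor could not be given.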

Other observations

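Paralogs of the members were read from the same columns. In quiescent RNA, where KLF9 was at 2.28 FPKM, its relative KLF13 was 2.14-fold higher than in proliferating cells and KLF10 was 2.21-fold lower. ARRDC4, an arrestin-fold relative of TXNIP known to respond to glucose, was 2.22-fold lower in pre-senescent RNA (24.37 against 54.16 FPKM) and 2.04-fold lower in transformed RNA (30.01 against 61.14), conditions in which TXNIP RNA was above its control. In quiescent cells, where TXNIP was also above its control, ARRDC4 was lower in RNA, short of 2-fold (29.9 against 54.16). Its quiescent Ribo-Seq level was 2.77-fold lower (25.54 against 70.79). CCNG1, a relative of CCNG2, was 2.41-fold higher in senescent RNA (130.84 against 54.35 FPKM), where CCNG2 was 1.14-fold above its control. Of the 9 paralogs in the table, 1 was past 2-fold higher and 1 lower in quiescent RNA, 0 and 1 in pre-senescent, 1 and 1 in senescent, and 0 and 1 in transformed RNA. Of 6 partners of TXNIP, TXN, the thioredoxin it binds, was the 1 past 2-fold in any RNA comparison, 2.30-fold higher in senescent cells (498.28 against 216.34 FPKM), with Ribo-Seq at 1857 against 1777.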
